A study of Mus musculus with 12 samples.

Results

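The genes described here encode the machinery that removes damaged mitochondria by mitophagy and that shapes the mitochondrial network by fusion and fission. The set was a list of 10 gene symbols, matched by name with no threshold on their values, and all 10 were present among the 10697 genes of the expression table. The table came from primary mouse adult fibroblasts (MAFs), cells grown out of biopsies of wild-type C57BL6/j mice in high-glucose medium. In 1 group of 6 libraries the cells had received 100 µM of the thyme compound thymol, dissolved in DMSO, for 24 h, and in the other 6 libraries DMSO alone in equal amount. The labels number the libraries 1 to 6 in each group but do not say whether they came from separate cultures or animals, so p-values measure the spread between these libraries, which may be technical. Transcripts were read at their 3′ end by QuantSeq, which yields about 1 read per transcript regardless of length, and levels are given as log2 CPM, the logarithm of reads scaled to library size. Levels of different genes therefore need no division by length. Other differences between genes in how fully their reads were counted were not tested, so comparisons of level between genes carry that limit.

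When a mitochondrion loses its membrane potential, the kinase PINK1 is no longer imported and degraded but accumulates on the outer membrane, where it phosphorylates ubiquitin and so marks the organelle for autophagy. A second route relies on receptors that sit in the mitochondrial membranes and bind LC3 on the forming autophagosome directly. Fragments small enough to be engulfed arise by fission, whereas fusion dilutes damage within the network. Much of this control acts on protein stability, processing and phosphorylation and not on transcript level.

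The recovered read totals ranged from 5435985 to 9049796 per library. Fibroblast markers were well represented, with 10 of 12 listed markers in the table at a median of 9.39 log2 CPM, while *Lum* and *Fap* were absent from it. All 12 macrophage markers were also present, at a median of 8.18 log2 CPM, while 2 of 6 endothelial, 2 of 6 skeletal muscle, 1 of 6 keratinocyte, 0 of 6 adipocyte and 0 of 6 lymphocyte markers were in the table. The summed level of the fibroblast markers was 13.82 to 13.92 log2 CPM with DMSO and 13.74 to 13.80 with thymol, without overlap. That of the macrophage markers, 13.998 to 14.14 and 14.001 to 14.27, was higher in both groups. The levels below are those of all cells of the culture together. The mean of the macrophage markers was 8.47 ± 0.039 in control and 8.37 ± 0.063 in treated cells (SD, n = 6 each). The muscle pair summed to 7.05 to 7.32 with DMSO and 6.54 to 6.97 with thymol, without overlap. Of all these markers, *Col1a1*, *Col3a1*, *Cd14*, *Itgam* and the muscle actin gene *Acta1* passed the adjusted threshold of 0.05 (limma) towards lower levels with thymol. In such bulk samples, fewer cells of a type and less RNA per cell cannot be told apart, and the part of the marker shift in the results below was not tested.

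None of the 10 genes of mitophagy and mitochondrial dynamics passed an adjusted p-value of 0.05 (limma, Benjamini-Hochberg over all 10697 genes) in thymol-treated compared to control cells, whereas 2.22% of all genes did, 0.654% towards higher and 1.57% towards lower levels. The unadjusted p-value was under 0.05 for 0 of the 10, against 11.8% of all genes. The ranges of the groups overlapped for all 10, whereas 1.68% of all genes had ranges without overlap. The mean was higher with thymol for 5 of them and lower for 5, with a median log2 difference of -0.0027, against 0.0026 over all genes. Their differences ranged from -0.27 for *Mfn1* to 0.11 for *Opa1*.

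**Figure D1:**
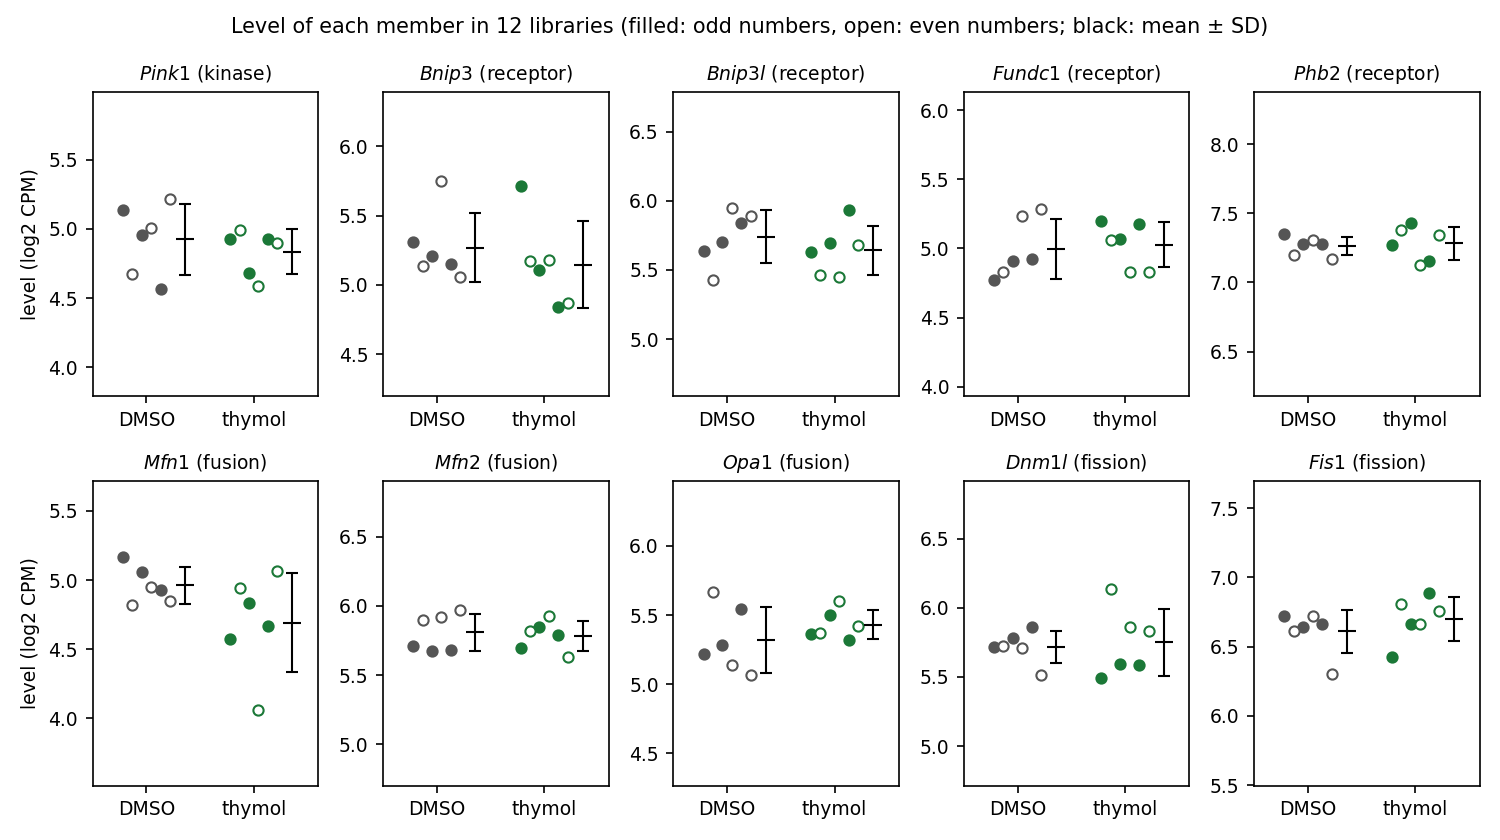
Level of each of the 10 genes (y axis, log2 CPM; every panel has the same span) in the 6 DMSO and the 6 thymol libraries (x axis). Points are libraries, filled for odd and open for even library numbers, and the black mark with its bar is the mean ± SD. The groups overlap in all 10 panels.

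The levels themselves formed a ladder. *Phb2* had the highest level, with a mean of 7.27 log2 CPM over the 12 libraries, followed by *Fis1* at 6.66. Each of these exceeded the next gene in the order in 12 of 12 libraries. *Mfn2* (5.80), *Dnm1l* (5.73) and *Bnip3l* (5.69) could not be ordered: *Mfn2* was above *Dnm1l* in 7 of 12 libraries, and *Dnm1l* above *Bnip3l* in 7 of 12. *Opa1* (5.38), *Bnip3* (5.21), *Fundc1* (5.01), *Pink1* (4.88) and *Mfn1* (4.83) followed in steps smaller than or about as large as the spread of the difference between neighbours. The lowest of them, *Mfn1*, lay at the 45.8th percentile of all genes in the table and *Phb2* at the 88.9th.

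*Pink1* (chromosome 4, 138313409 to 138326307, minus strand; coordinates of GENCODE vM21 on GRCm38) encodes the sensor kinase described above. With DMSO it ranged from 4.57 to 5.21 log2 CPM with a median of 4.98, and with thymol from 4.59 to 4.99 with a median of 4.91. The groups overlapped almost completely, and the thymol values spanned a narrower range within that of DMSO. The log2 difference was -0.09 ± 0.13 (SE, limma adjusted p = 0.876), with a 95% interval of -0.35 to 0.17, which in percent is -21.3% to 12.2%. This rested on a mean of 201 reads per library.

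*Bnip3* (chromosome 7, 138890836 to 138909519, minus strand) and *Bnip3l* (chromosome 14, 66985239 to 67008877, minus strand), also called Nix, encode related outer-membrane receptors that carry an LC3-interacting region, and *Bnip3* is a known target of the hypoxia-inducible factor HIF-1. *Bnip3* ranged from 5.06 to 5.75 log2 CPM with DMSO (median 5.18) and from 4.84 to 5.71 with thymol (median 5.14). In each group 1 library stood high, DMSO replicate 4 at 5.75 and thymol replicate 1 at 5.71, and the other 10 lay between 4.84 and 5.31. The mean difference was -0.12 ± 0.13 on the log2 scale (SE, limma adjusted p = 0.796). It was -0.24 without thymol replicate 1 and -0.027 without DMSO replicate 4, and the adjusted p-value stayed at or above 0.452 under all 23 alternatives tried. *Bnip3l* ranged from 5.43 to 5.94 with DMSO (median 5.77) and from 5.45 to 5.93 with thymol (median 5.66), with nearly coinciding ranges. Its difference was -0.098 with a 95% interval of -0.30 to 0.10. *Bnip3* was the gene whose spread within groups exceeded counting error the most, 3.08 times, whereas for the other 9 the ratio lay between 1.61 and 2.86. Within libraries, *Bnip3* was below *Bnip3l* by 0.47 ± 0.25 in control and by 0.50 ± 0.42 in treated cells (SD, n = 6 each).

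The RefSeq promoter of *Bnip3* is shown because it holds ACGTG, a form of the core of the HIF-1 binding motif, searched on both strands. The other form of the core, GCGTG, was neither searched nor marked. It spans chr7:138909457-138909756 on GRCm38.p6, minus strand, from 250 bases before to 50 after the transcript start, and capitals mark the match. The match reads the same on both strands and is at the same time an E-box, CACGTG.
Bnip3: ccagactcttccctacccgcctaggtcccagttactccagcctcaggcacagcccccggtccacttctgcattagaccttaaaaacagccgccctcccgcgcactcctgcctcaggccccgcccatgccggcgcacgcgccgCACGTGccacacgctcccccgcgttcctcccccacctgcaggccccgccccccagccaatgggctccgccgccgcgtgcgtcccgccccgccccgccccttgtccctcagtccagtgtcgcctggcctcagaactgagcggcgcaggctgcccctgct
ACGTG was present in 19.6% of 32851 RefSeq promoters of this length. The 9 genes that could be matched by symbol had 13 promoters, and a gene was counted if any of its promoters held the motif. Counts of genes are therefore not like the shares of promoters. ACGTG was present for 3 of the 9, *Bnip3*, *Mfn2* and *Phb2*. The E-box was in 7.15% of promoters and present for 1 of the 9 genes. The symbol *Bnip3l* had no entry. Of the 20 measured HIF-1 target genes listed with *Bnip3*, 0 passed the adjusted threshold, 7 were higher and 13 lower, and the median log2 difference was -0.051. The gene with the smallest p-value was *Mxi1*, a repressor of MYC activity, at 4.84 ± 0.16 log2 CPM in control and 4.56 ± 0.17 in treated cells (SD, n = 6 each, limma adjusted p = 0.378). Across the 12 libraries, with group means removed, *Bnip3* was not detectably related to the mean of these 20 targets. Pearson's r was 0.36 (permutation p = 0.264, adjusted over the relations of *Bnip3* and *Bnip3l* 0.485) and Spearman's rho 0.31 (permutation p = 0.320, adjusted 0.541), and r was 0.40 without the 2 libraries farthest from the median of the targets. For *Bnip3l*, r was -0.22 (permutation p = 0.485) and rho -0.20 (permutation p = 0.541), with r = -0.25 without the same 2 libraries.

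*Fundc1* (chromosome X, 17556564 to 17572325, minus strand) encodes an outer-membrane receptor of hypoxia-induced mitophagy, and *Phb2* (chromosome 6, 124712336 to 124716950, plus strand) encodes prohibitin 2, an inner-membrane scaffold that is exposed as a receptor once the outer membrane ruptures. *Fundc1* ranged from 4.77 to 5.29 log2 CPM with DMSO (median 4.92) and from 4.83 to 5.20 with thymol (median 5.06). All thymol values fell inside the DMSO range. *Phb2* ranged from 7.17 to 7.35 with DMSO (median 7.28) and from 7.13 to 7.43 with thymol (median 7.31), so that 2 thymol libraries lay below and 2 above every DMSO library. The log2 difference of *Phb2* was 0.02 ± 0.066 (SE, limma adjusted p = 0.963), and its 95% interval of -7.49% to 11.1% was the narrowest of the 10, on a mean of 1048 reads per library. That of *Fundc1*, on 220 reads, was -13.5% to 21.0%.

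Within the last 1000 bases of *Bnip3* and of *Phb2* the annotation holds an antisense gene, Gm45507 and Gm15884. Neither was in the table. The strand setting of the authors' counting is not given in the sources used here, so reads of these pairs may not have been told apart.

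*Mfn1* (chromosome 3, 32529465 to 32579239, plus strand) and *Mfn2* (chromosome 4, 147873599 to 147904704, minus strand) encode the mitofusins, the GTPases that join outer membranes, and *Opa1* (chromosome 16, 29579334 to 29654884, plus strand) encodes the GTPase that joins inner membranes and holds the cristae. *Mfn1* had the smallest p-value of the 10. It ranged from 4.82 to 5.17 log2 CPM with DMSO (median 4.94) and from 4.06 to 5.07 with thymol (median 4.75), and 3 of the 6 thymol libraries lay below every DMSO library. The control mean was 4.96 ± 0.13 and the mean of treated cells 4.69 ± 0.36 (SD, n = 6 each), a log2 difference of -0.27 ± 0.14 (SE) with an unadjusted limma p-value of 0.052, an adjusted one of 0.430 and an exact two-sided permutation p of 0.0952 over 924 relabellings. Thymol replicate 4, at 4.06 with 96 reads, carried much of it: without this library the difference was -0.14. The gene ranked 1297th of 10697 by p-value.

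*Mfn2* ranged from 5.67 to 5.97 log2 CPM with DMSO and from 5.63 to 5.92 with thymol, both with a median of 5.80, and the difference was -0.025 with a 95% interval of -13.5% to 11.7%. The log2 ratio of *Mfn1* to *Mfn2* within a library was -0.85 ± 0.24 in control and -1.09 ± 0.43 in treated cells (SD, n = 6 each), with ranges of -1.12 to -0.54 and -1.86 to -0.56 that overlapped. *Opa1* ranged from 5.07 to 5.67 with DMSO (median 5.25) and from 5.32 to 5.603 with thymol (median 5.40). Every thymol value of *Opa1* lay within the DMSO range and above the DMSO median. The log2 difference was 0.11 ± 0.11 (SE, limma adjusted p = 0.789).

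*Dnm1l* (chromosome 16, 16312230 to 16358959, minus strand) encodes DRP1, the GTPase that constricts the organelle, and *Fis1* (chromosome 5, 136953275 to 136966234, plus strand) an outer-membrane protein of the fission site. *Dnm1l* ranged from 5.51 to 5.86 log2 CPM with DMSO (median 5.72) and from 5.49 to 6.14 with thymol (median 5.71). Its thymol values spread to both sides, with 1 library below and 2 above every DMSO library, and the log2 difference was 0.034 with a 95% interval of -0.17 to 0.24. *Fis1* ranged from 6.30 to 6.72 with DMSO (median 6.65) and from 6.42 to 6.89 with thymol (median 6.71), and 3 thymol libraries lay above every DMSO library. DMSO replicate 6 was low for *Fis1*, at 6.30 against 6.61 in the next library. The log2 difference was 0.09 ± 0.08 (SE, limma adjusted p = 0.755) and 0.028 without that library.

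**Figure D2:**
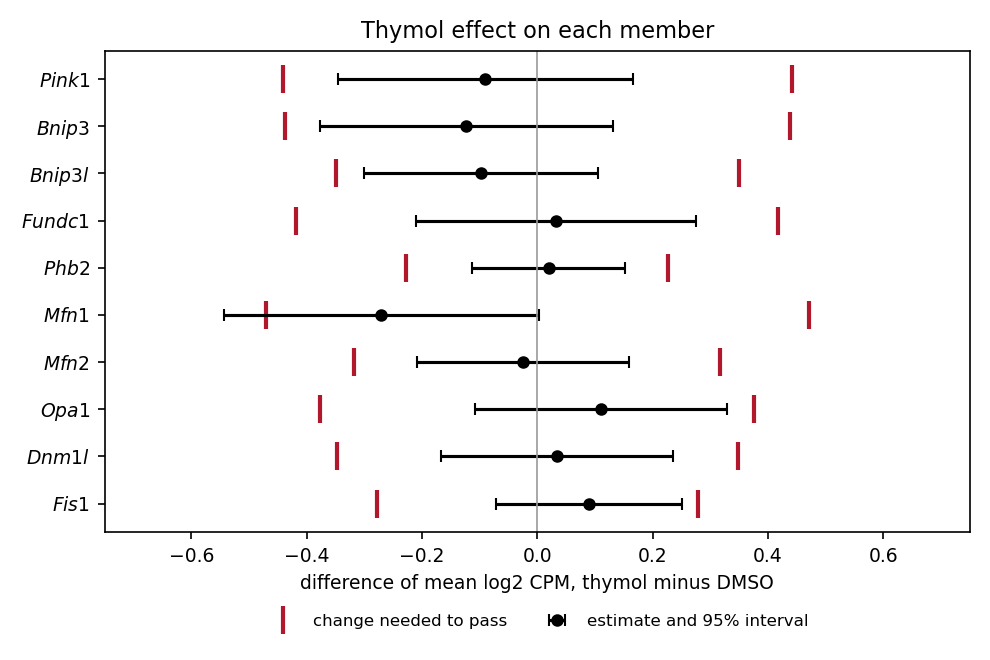
Difference of mean log2 CPM between thymol and DMSO (x axis) for each of the 10 genes (y axis). Points and bars are the limma estimate and its 95% interval over 6 against 6 libraries, and red marks show the difference that would have passed the threshold, from 0.23 for *Phb2* to 0.47 for *Mfn1*. No estimate reaches its red marks.

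Depth and spread between libraries set the size of change that could be seen. Given the standard error of each gene and the p-value of 0.0011 at which the calls ended, *Phb2* would have passed at a log2 difference of 0.23, which is a rise of 17.1%, and *Fis1* at 0.28. The other 8 needed between 0.32 (*Mfn2*) and 0.47 (*Mfn1*), the latter a rise of 38.6% or a fall of 27.9%. The intervals of 9 of the 10 genes lay inside these limits, and that of *Mfn1*, -31.4% to 0.194%, reached past the lower one. A smaller estimate would not have passed with these standard errors, and true changes near these limits could have been missed.

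Some members varied together from library to library, and both pairs named here were picked after their values were seen. Among the 45 pairs of the 10 genes, with the mean of each group removed, 20 correlations were positive and 25 negative, and 2 passed an adjusted p-value of 0.05. The permutations shuffled all 12 centred values across both groups. They made no allowance for the removed means, so their p-values come out somewhat small. *Pink1* and *Opa1* ran opposite to each other, with Pearson's r = -0.91 over 12 libraries (permutation p = 8e-05, adjusted over the 45 pairs 0.0036) and Spearman's rho = -0.87 (permutation p = 0.0005, adjusted 0.022). The relation was similar within DMSO (r = -0.92) and within thymol (r = -0.93), and r was -0.89 without the 2 libraries farthest from the median of *Pink1*. The lowest *Pink1* level, 4.57 in DMSO replicate 5, went with an *Opa1* level of 5.54, and the highest, 5.21 in DMSO replicate 6, with the lowest *Opa1* level, 5.07. Of 5394 genes with a mean of at least 5 log2 CPM, *Opa1* had the most negative correlation with *Pink1*, and 15 reached an absolute r of 0.8. The points of such a correlation share their library and its scaling. Recovered reads per library correlated with *Pink1* at r = 0.30 and with *Opa1* at r = -0.31, and their part in the relation was not tested.

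The promoters of the pair are shown for this relation, each from 250 bases before to 50 after the start on GRCm38.p6. That of *Pink1* lies at chr4:138326247-138326546, minus strand, and that of *Opa1* at chr16:29579084-29579383, plus strand. Capitals in *Opa1* mark the core motif of NRF1, a factor of nuclear genes for mitochondria, searched as GCATGCG on both strands, whose overlapping matches form a single stretch.
Pink1: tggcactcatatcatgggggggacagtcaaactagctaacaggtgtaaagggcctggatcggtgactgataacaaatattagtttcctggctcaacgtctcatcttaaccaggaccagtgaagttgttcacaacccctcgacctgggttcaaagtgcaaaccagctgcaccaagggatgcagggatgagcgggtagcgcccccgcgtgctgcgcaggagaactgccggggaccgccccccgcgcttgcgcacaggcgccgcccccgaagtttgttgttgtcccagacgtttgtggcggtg
Opa1: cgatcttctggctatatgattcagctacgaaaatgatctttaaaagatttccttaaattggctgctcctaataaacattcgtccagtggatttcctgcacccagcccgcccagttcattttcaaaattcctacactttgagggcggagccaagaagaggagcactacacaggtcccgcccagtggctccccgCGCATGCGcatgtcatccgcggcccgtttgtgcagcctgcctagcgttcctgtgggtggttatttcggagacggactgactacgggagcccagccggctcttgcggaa
Of all promoters, 3.58% held this motif, and among the 9 matched genes only *Opa1* did. The motif of ETS factors, CCGGAAG, was in 8.86% of promoters and in those of 4 of the 9, *Dnm1l*, *Fis1*, *Mfn1* and *Phb2*. The *Pink1* promoter held none of the 4 motifs searched, which says only that these letters are not in this window.

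The other related pair was *Phb2* and *Mfn1*, which moved in the same direction with r = 0.79 (permutation p = 0.0013, adjusted 0.03) and rho = 0.82 (permutation p = 0.0021, adjusted 0.048). Both adjusted values lay near the threshold of 0.05, and with the removed means allowed for this pair may not pass. Without thymol replicates 4 and 5, the 2 libraries farthest from the median of *Phb2*, r was 0.75. Thymol replicate 4 was the lowest library for both genes. Among all genes with a mean of at least 5 log2 CPM, the patterns most like that of *Mfn1* over the 12 libraries were those of *Emc6* (r = 0.88), *Nasp* (r = 0.87) and *Pclaf* (r = 0.87), picked as the highest of 5394.

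**Figure D3:**
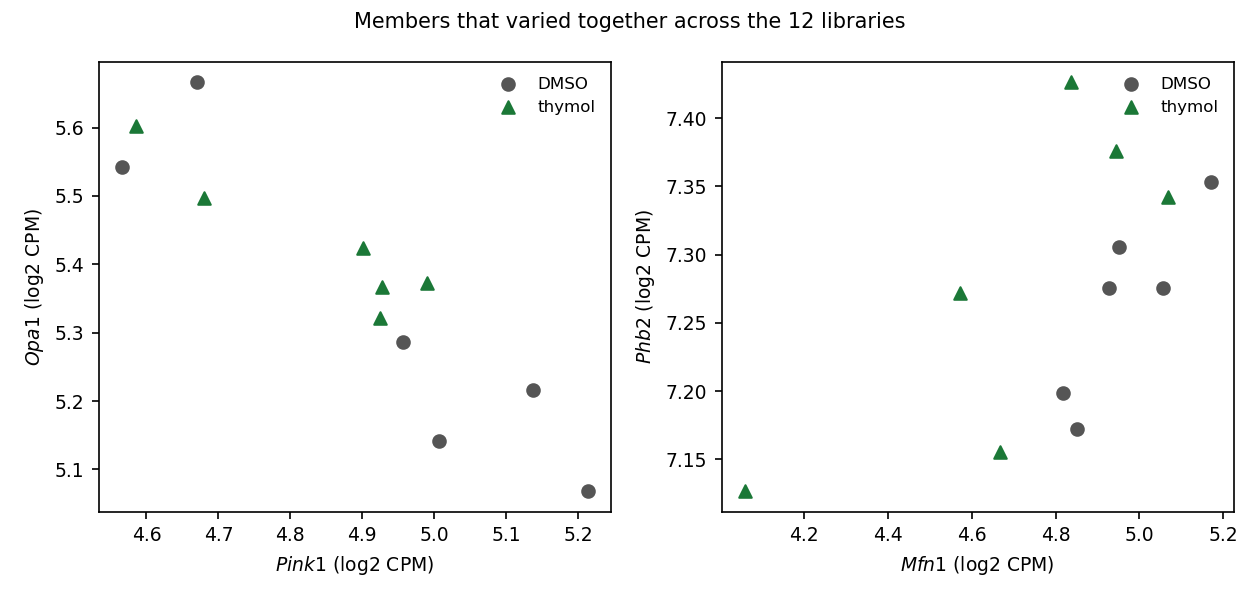
Levels of *Opa1* against *Pink1* (left) and of *Phb2* against *Mfn1* (right), each in log2 CPM, in the 12 libraries; circles are DMSO and triangles thymol. *Opa1* falls as *Pink1* increases in both groups, and *Phb2* increases with *Mfn1*.

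Odd- and even-numbered libraries gave different pictures for *Dnm1l*. In odd-numbered libraries the 3 thymol values, 5.49 to 5.59 log2 CPM, lay below the 3 DMSO values, 5.71 to 5.86, and in even-numbered libraries the 3 thymol values, 5.84 to 6.14, lay above the 3 DMSO values, 5.51 to 5.72. The log2 difference was -0.23 in the former and 0.30 in the latter. Such an opposite separation was found for 44 of 10697 genes (0.411%), a share no larger than chance alone gives for 3 against 3 values. *Dnm1l* was the only member among them. *Fundc1* differed by 0.28 in odd-numbered and by -0.21 in even-numbered libraries. Even without treatment, *Mfn2* was 5.67 to 5.71 in odd-numbered and 5.90 to 5.97 in even-numbered DMSO libraries, a separation of odd from even that 14.6% of all genes showed in the DMSO libraries. Separation of 3 from 3 values is common by chance alone. In thymol libraries *Mfn2* overlapped between odd (5.69 to 5.85) and even numbers (5.63 to 5.92). The difference between odd and even was tested by an interaction term in limma, chosen after these values were seen. The unadjusted limma p was 0.0068 for *Dnm1l* and 0.041 for *Fundc1*, and the adjusted values were 0.992 and 0.995. Of all genes, 4.96% had an unadjusted p under 0.05, about the share that chance alone gives, and 0 of 10697 (0%) passed. The labels do not say what odd and even numbers stand for. In each group, the library names run through the odd numbers first and then the even ones. What that order reflects is not given.

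**Figure D4:**
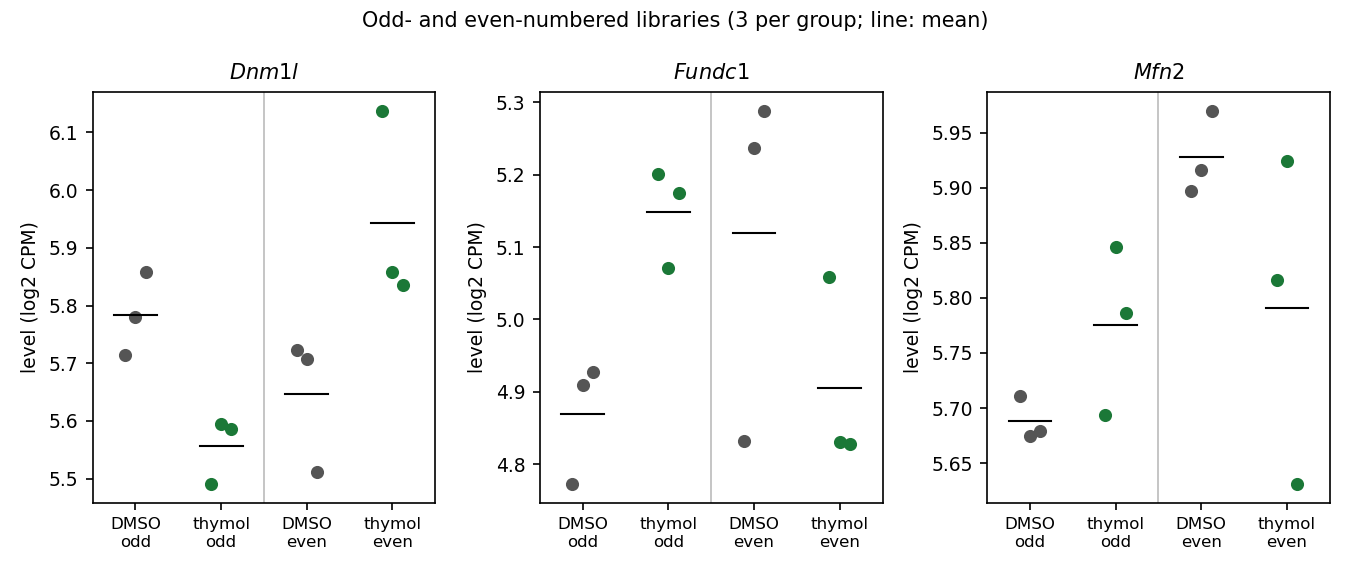
Levels (y axis, log2 CPM) of *Dnm1l*, *Fundc1* and *Mfn2* in odd- and even-numbered DMSO and thymol libraries (x axis); points are libraries, 3 per group, and lines are means. The thymol values of *Dnm1l* lie below DMSO in odd-numbered and above DMSO in even-numbered libraries.

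The wider pathway was read through lists around the 10 genes. Together the lists held 106 measured genes, of which 0 passed the adjusted threshold, against 2.22% of all genes, and 13 had an unadjusted p under 0.05 (10 higher and 3 lower), which is 12.3% against 11.8% of all genes.

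The PINK1 and ubiquitin arm held 20 measured genes, 10 higher and 10 lower, with a median log2 difference of -0.00069. The gene with the smallest p-value was *Usp35*, a deubiquitinase, at 2.28 ± 0.47 log2 CPM in control and 2.99 ± 0.41 in treated cells (SD, n = 6 each), a difference that did not pass (limma adjusted p = 0.211) and rested on a mean of 43 reads. *Mul1*, a mitochondrial ubiquitin ligase named here after its values were seen, was at 4.39 ± 0.22 with DMSO and 4.75 ± 0.21 with thymol (limma adjusted p = 0.228), and 5 of 6 thymol libraries lay above every DMSO library. Of the 16 other receptors and adaptors, 10 were higher and 6 lower, with a median of 0.022. Their smallest p-value was that of *Tbc1d17*, a GTPase-activating protein for Rab proteins, with a difference of 0.38 ± 0.15 (SE, limma adjusted p = 0.228).

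Of the 10 other fission factors 5 were higher and 5 lower, with a median of -0.021, and *Spire1*, an actin nucleator, led them with 0.20 (limma adjusted p = 0.469). The 19 fusion partners and cristae genes were higher in 14 cases and lower in 5, with a median of 0.042. Among them *Immt*, the core of the cristae junction complex, was at 6.76 ± 0.12 log2 CPM in control and 6.94 ± 0.093 in treated cells (SD, n = 6 each, limma adjusted p = 0.246). *Yme1l1*, a protease that cleaves OPA1, was named after its values were seen. It differed by 0.19 with an adjusted p of 0.272, and 5 of 6 thymol libraries lay above every DMSO library.

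Genes used as a measure of mitochondrial content did not pass either. Of 14 measured genes of porins, import and matrix, 6 were higher and 8 lower, with a median of -0.019 and the smallest p-value for the chaperone gene *Hspd1* (0.16 ± 0.077 SE, limma adjusted p = 0.376). Of 7 mitochondrially encoded subunits 6 were higher, with a median of 0.078, and *mt-Nd6* had the smallest p-value (0.42, limma adjusted p = 0.197). The unadjusted limma p was under 0.05 for 3 of the 7 (42.9%), *mt-Nd6*, *mt-Nd2* (0.14) and *mt-Nd5* (0.13), all higher. Over the 7 lists together the share was 12.3%, against 11.8% of all genes. In the even-numbered libraries alone, *mt-Nd2* (0.22, limma adjusted p = 0.0005) and *mt-Nd4* (0.19, limma adjusted p = 0.0018) passed. In the odd-numbered libraries alone, 0 of the listed genes passed. With the replicate number as a block, *mt-Nd2* passed (limma adjusted p = 0.035).

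**Figure D5:**
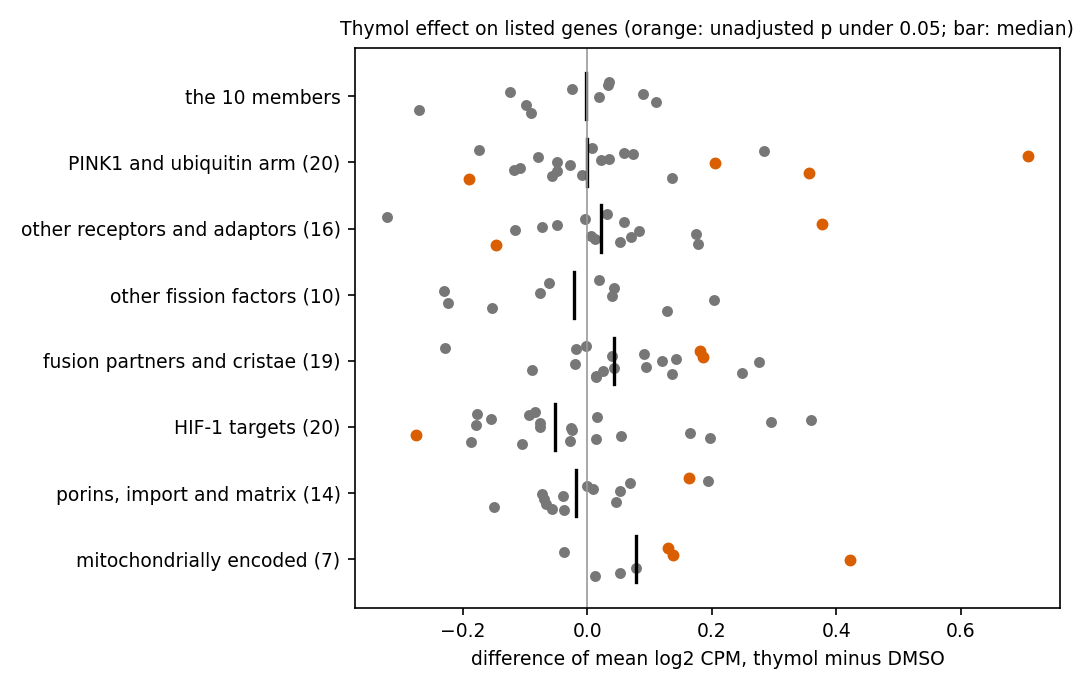
Difference of mean log2 CPM between thymol and DMSO (x axis) for every measured gene of the 10 members and of 7 lists around them (y axis, number of measured genes in brackets). Each point is a gene, orange where the unadjusted limma p is under 0.05, and bars are list medians, which lie between -0.051 and 0.078.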

How the data were processed

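Total RNA of the MAFs, in 12 libraries, was sequenced with the QuantSeq 3′ kit. Per the labels and the study's methods, the authors aligned reads to GRCm38 with STAR 2.5.3, counted them per gene with HTSeq 0.6.1, required a minimum of 30 reads in 6 or more samples (met by 98% of genes in the recovered reads) and scaled the libraries by TMM. The deposited values are log2 CPM with a prior count. Undoing the logarithm gave equal steps, and of the values below 200 reads 100% were whole to within 0.02, which gave the read totals. The prior, 1.96 reads on average, pulls differences of low genes towards 0, and read totals speak of counting error only.

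All 12 libraries were fitted with limma 3.58.1 in R 4.3.3 (trended eBayes variance, group as sole term), adjusted over all 10697 genes, threshold 0.05. The procedure was tested on simulated data. Differences are thymol minus DMSO. Exact permutation tests ran over libraries, and correlations used 100000 permutations. All 10 members are named, and from each list the genes past the threshold or else that with the smallest p-value, plus the patterns most like that of the member with the smallest p-value. Members and lists were chosen with earlier results of these data known. Promoters are from RefSeq (GRCm38.p6). Alternatives covered variance model, pseudocount, scaling, filter, voom, replicate block, library number and leaving out each library.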

Additional observations from a re-analysis of the deposited data

Results flagged for a closer look

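Libraries far from the other 5 of their group were sought by Dixon's criterion, which divides the distance to the closest library by the whole range. Of 36 such groups, over the 10 members, the means of 7 lists and the read totals, 4 held a library past it, where chance gives about 1.8. *Bnip3* stood at 5.75 log2 CPM in DMSO replicate 4, against 5.31 in the next library, and *Fis1* at 6.30 in DMSO replicate 6, against 6.61. In the same DMSO replicate 6, the mean of the 14 porin, import and matrix genes was 6.39 log2 CPM, against 6.51 in the next library. Thymol replicate 5 was the deepest of its group with 9049796 recovered reads, and 6585162 were recovered in the one after it.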

How the results depend on the processing

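Of the 10 members, 0 passed the threshold as reported and under each of the 23 alternatives, 12 of which left out 1 library. The number of all genes past the threshold was 238, and it was 57 without the mean-variance trend, 70 in the odd-numbered libraries alone, 332 with the replicate block and 172 to 270 with a library left out. Of the listed pathway genes 0 passed, but 1 did with the replicate block (*mt-Nd2*) and 2 in the even-numbered libraries alone (*mt-Nd2* and *mt-Nd4*). The cause was not tested. *Pink1*, *Bnip3*, *Mfn1* and *Opa1* kept their direction under every alternative that gave a value. *Mfn1* ranged from -0.36 in the odd-numbered libraries to -0.14 without thymol replicate 4, with an unadjusted p under 0.05 in 11 of 22 alternatives and a smallest adjusted p of 0.302, and the filter at a mean of 5 left out *Pink1* and *Mfn1*. In the odd-numbered libraries alone the direction turned for *Bnip3l* (0.025), *Phb2* (-0.017), *Mfn2* (0.087), *Dnm1l* (-0.23) and *Fis1* (-0.018), and in the even-numbered ones for *Fundc1* (-0.21). With a library left out, the direction of *Fundc1* (-0.012 to 0.092), *Phb2* (-0.0090 to 0.051), *Mfn2* (-0.053 to 0.0074) and *Dnm1l* (-0.043 to 0.086) also turned. The labels do not say whether equal replicate numbers mark pairs. Residuals of 2 of 6 same-numbered pairs correlated above 0.1, with r = 0.27 for number 1. In all, 1 of 6 DMSO libraries correlated best with its own number. The replicate block raised the number of all genes past the threshold from 238 to 332. The block changed no call of a member.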
